A study of Mus musculus with 8 samples.

Results

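The genes described are the xenobiotic receptors CAR (Nr1i3) and PXR (Nr1i2), the cytochrome P450 genes Cyp2b9, Cyp2b10, Cyp3a11, Cyp3a13 and Cyp3a25, and Por. They were chosen by gene symbol, and no value entered the rule, but earlier results of these data were known. Of these 8 symbols, 7 matched a row among the 11784 genes in the deposited table, and Cyp2b10 was not analysed here. Livers came from male C57BL/6J mice that were placed on amino acid defined diets at 9 weeks of age. The 4 Control mice received the Control diet (TD.140711), and the 4 Low AA mice the Low AA diet, with fewer calories from amino acids and more from carbohydrate (TD.140712). All 8 mice were killed after about 4 months of feeding and roughly 16 hours without food, and their liver poly(A) RNA was sequenced. The question was how eating less protein changes liver gene expression.

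CAR and PXR are nuclear receptors that sense drugs, bile acids and steroids in hepatocytes. Each pairs with an RXR receptor on DNA and drives genes for drug breakdown, with Cyp2b genes as the classic targets of CAR and Cyp3a genes as those of PXR. The P450 enzymes take their electrons from NADPH through POR. Cyp2b9 is known as a P450 of female mouse liver, and only males were studied.

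Values are scaled read counts, rounded to whole numbers, and they summed to between 27876664 and 30799385 per mouse. They were compared between the diets as log2(value + 1) with limma, a test that pools information on the spread over all genes, with Benjamini-Hochberg adjustment over all 11784 genes and a threshold of 0.05. A positive log2 fold change is higher on the Low AA diet. The labels mark each liver as a separate mouse. Control mouse F2212 stood apart for Cela1, a pancreatic protease gene and the single acinar marker of 10 with a value, at 36587 against 130 to 288 in the other mice. The defining hepatocyte markers were high in every mouse, with a sum of 2051102 or more over 6 of 6 genes. In bulk liver, fewer cells of a type and less RNA per cell cannot be told apart.

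Cyp3a11, the principal PXR-responsive Cyp3a gene of mouse liver, was the 1 member that rose on the Low AA diet. The other 6 members did not pass the test, and among them were both receptors and Por, which had values close to each other on the 2 diets. Of the members Cyp2b9 had the largest difference in size, but its values varied widely among mice of the same diet. Its presence among the genes analysed rests on its values in Low AA mice. Of all genes 0.399% passed the test, 0.102% higher and 0.297% lower. The diets did not overlap in 6.81% of all genes, with the Low AA mice above in 3.26% and below in 3.55%. At an unadjusted p under 0.05 in limma, 5.13% of all genes were higher, and of the members Cyp3a11 and Cyp2b9 were.

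The promoters of Cyp3a11, Cyp3a25, Cyp3a59 and Cyp2b9 are shown here because, of the genes looked at, these held a hexamer that receptors of this class recognise. The stretches come from RefSeq on GRCm38.p6, in the direction of the gene, and lie upstream of both the RefSeq and the GENCODE M21 start. Capitals mark AGGTCA or AGTTCA, the hexamers searched, or their reverse complements TGACCT and TGAACT. The stretches are chr5:145879965-145880104 on the minus strand for Cyp3a11, chr5:146009619-146009868 on the minus strand for Cyp3a25, chr5:146079008-146079256 on the plus strand for Cyp3a59 and chr7:26173159-26173408 on the plus strand for Cyp2b9.
Cyp3a11: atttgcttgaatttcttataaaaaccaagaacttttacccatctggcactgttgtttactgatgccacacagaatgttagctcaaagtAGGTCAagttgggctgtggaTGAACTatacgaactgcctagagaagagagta
Cyp3a25: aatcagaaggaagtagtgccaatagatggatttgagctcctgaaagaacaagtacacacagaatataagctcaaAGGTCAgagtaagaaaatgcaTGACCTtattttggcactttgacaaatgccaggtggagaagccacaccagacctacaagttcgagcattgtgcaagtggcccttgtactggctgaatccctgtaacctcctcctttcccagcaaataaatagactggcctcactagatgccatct
Cyp3a59: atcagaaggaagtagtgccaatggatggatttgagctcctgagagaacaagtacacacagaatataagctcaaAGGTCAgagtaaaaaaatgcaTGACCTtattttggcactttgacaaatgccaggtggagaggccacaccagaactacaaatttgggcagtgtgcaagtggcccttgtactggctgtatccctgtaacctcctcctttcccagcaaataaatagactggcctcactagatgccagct
Cyp2b9: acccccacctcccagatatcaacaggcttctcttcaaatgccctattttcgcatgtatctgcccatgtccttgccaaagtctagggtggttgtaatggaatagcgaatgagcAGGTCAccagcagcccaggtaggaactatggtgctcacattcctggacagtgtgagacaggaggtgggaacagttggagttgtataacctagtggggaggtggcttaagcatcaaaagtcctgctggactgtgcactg

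In the 250 bases upstream of the RefSeq start, Cyp3a11 held AGGTCA with its first base 162 bases before the start and TGAACT with its first base 142 bases before it. The stretch shown for Cyp3a11 leaves out the 110 bases nearest that start, and that of Cyp3a59 leaves out 1. The bases left out lie within the gene as placed by GENCODE. Cyp3a25 held AGGTCA at 176 and TGACCT at 155 bases before the start used, and Cyp3a59, its neighbour, held the same pair at 177 and 156. For Cyp3a25, 2 RefSeq starts were listed, and the bases before the other start were not searched separately. Cyp2b9 held a single AGGTCA at 138. The other promoters, those of Nr1i2, Nr1i3, Cyp2b10, Cyp3a13 and Por, held 0 of these hexamers on either strand. The Por stretch, chr5:135688895-135689144, lies within the gene as placed by GENCODE M21. The bases before the GENCODE start of Por were not searched. Of 32851 promoters of this length, 14.0% held AGGTCA, 11.8% held AGTTCA and 24.2% held either, on either strand. A hexamer is a match of letters, not a measured binding site. The Cyp3a25 and Cyp3a59 promoters had 94.8% identical positions in a global alignment, and those of Cyp3a11 and Cyp3a25 52.7%.

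PXR is encoded by Nr1i2, on chromosome 16 from 38248323 to 38294824 (GENCODE M21, GRCm38). Its scaled read counts were 2968, 3829, 3204 and 3131 in Low AA mice H1126, H828, H817 and H1315, and 2550, 3285, 3649 and 2290 in Control mice F129, F2212, F7111 and F2110. The diets overlapped, with the lowest values in Control mice F2110 and F129 and the highest in Low AA mouse H828. The fold was 1.13 with a 95% interval of 0.891 to 1.43 (log2 fold change 0.18, standard error 0.15, limma adjusted p = 0.734).

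CAR is encoded by Nr1i3, on chromosome 1 from 171213970 to 171220701. Its values, in the same order of mice, were 5161, 4444, 5179 and 5078 in Low AA mice and 4000, 5073, 5233 and 3476 in Control mice. All Low AA mice but H828 were within a narrow band, with H828 below it, while the Control mice spread on both sides of that band. The fold was 1.13 with a 95% interval of 0.914 to 1.40 (log2 fold change 0.18, standard error 0.14, limma adjusted p = 0.696).

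Por, on chromosome 5 from 135670033 to 135735326, had 15006, 21193, 18271 and 20222 in Low AA mice and 12683, 16595, 20231 and 20734 in Control mice. The lowest mouse of each diet, F129 and H1126, lay well under the rest of its group. The fold was 1.07 with a 95% interval of 0.825 to 1.40 (log2 fold change 0.10, standard error 0.17, limma adjusted p = 0.874).

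Per kilobase of transcript, CAR was above PXR in every mouse, by a ratio of 2.10 to 3.14 in Low AA mice and 2.59 to 2.83 in Control mice. The lowest ratio was that of H828, the mouse with the most PXR and the least CAR among the Low AA mice. The Control mice kept nearly 1 ratio although both receptors were lower in F129 and F2110 than in F2212 and F7111.

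Cyp3a11 encodes a P450 of wide substrate range and lies on chromosome 5 from 145854426 to 145879964, within the Cyp3a cluster. Its scaled read counts were 94699 in H1126, 64543 in H828, 68828 in H817 and 94939 in H1315 on the Low AA diet. On the Control diet they were 25318 in F129, 29299 in F2212, 38441 in F7111 and 45765 in F2110. The groups did not overlap, and the lowest Low AA mouse had 1.41 times the value of the highest Control mouse. Means were 80752 ± 16337 in Low AA mice and 34706 ± 9195 in Control mice (SD, n = 4 each), and the fold was 2.35 with a 95% interval of 1.71 to 3.23 (log2 fold change 1.23, standard error 0.21, limma adjusted p = 0.0395). An exact permutation test, two-sided, gave p = 0.0286, the smallest that 4 mice against 4 allow. Cyp3a11 was the gene with the 33rd smallest p of 11784.

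The adjusted p of Cyp3a11 lay close to the threshold, and with a mouse left out it passed in 1 of 8 fits. In limma it was 0.0851 without Control mouse F129, 0.0599 without F2212 and 0.0668 without F7111. It was 0.106 without Low AA mouse H1126, 0.065 without H828, 0.088 without H817 and 0.0746 without H1315. Without Control mouse F2110 it was 0.0271. The log2 fold change in these 8 fits stayed between 1.09 and 1.38. Without F7111, H828 or H817 it was 1.30, 1.33 and 1.30, larger than the 1.23 of all mice, although the adjusted p did not pass. Each of these fits has fewer mice, so a lost pass does not single out the mouse left out. Without the mean-variance trend the adjusted p was 0.0636 in limma.

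**Figure D1:**
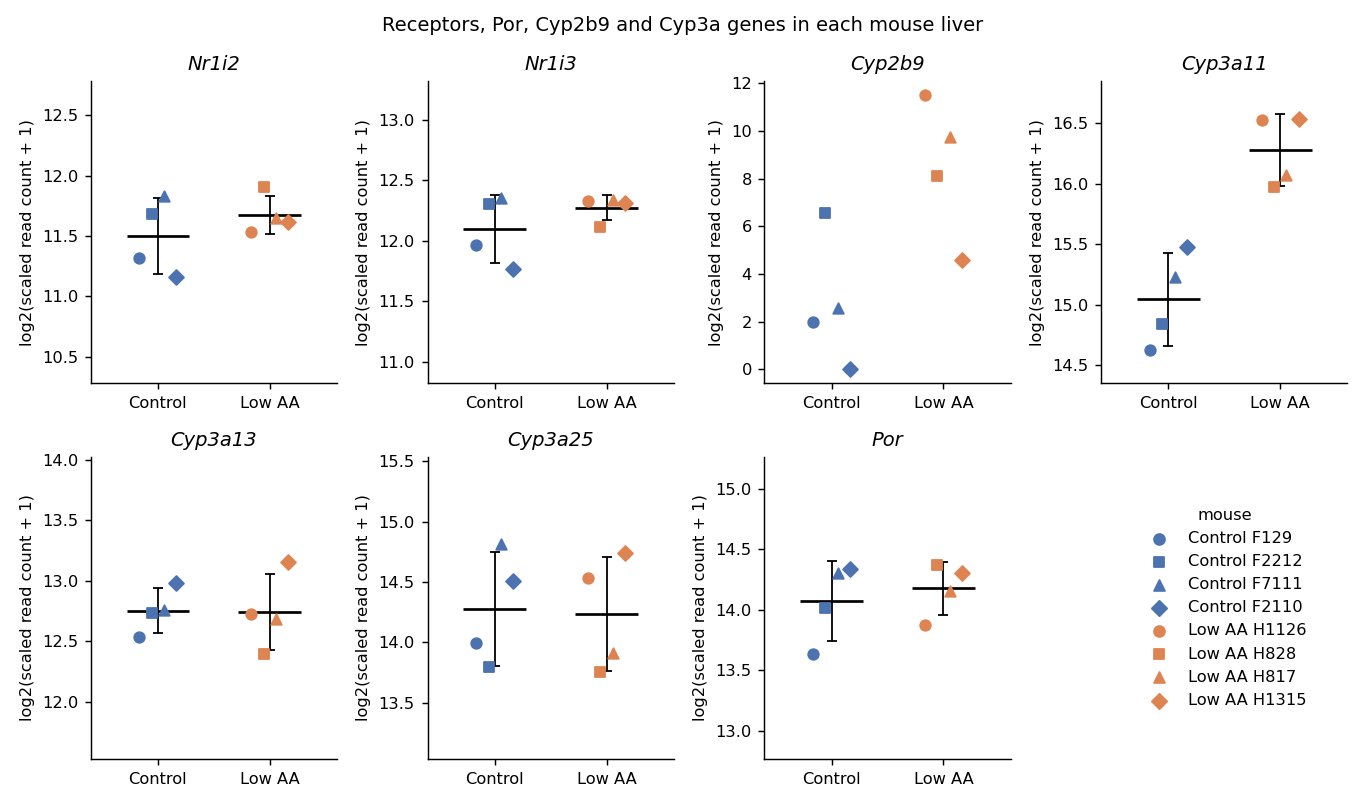
Each point is 1 mouse liver, plotted as log2(scaled read count + 1) on the vertical axis with its own range in each panel. Bars are the mean and SD of 4 mice and are left out for Cyp2b9, which was listed at 0 in 1 mouse. In Cyp3a11 the Low AA mice, from 64543 to 94939 scaled read counts, all lie above the Control mice, from 25318 to 45765, and in the other 6 genes the diets overlap.

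Cyp3a25, on chromosome 5 from 145977194 to 146009618, is a neighbour of Cyp3a11 in the cluster. It had 23636, 13821, 15460 and 27282 scaled read counts in Low AA mice and 16302, 14195, 28869 and 23292 in Control mice. Each diet held a high pair and a low pair of mice, so the spread within a diet was far larger than the difference between them. The fold was 0.970 with a 95% interval of 0.643 to 1.46 (log2 fold change -0.04, standard error 0.27, limma adjusted p = 0.972).

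Cyp3a13 lies apart from the cluster, on chromosome 5 from 137892932 to 137921619. Its values were 6785, 5385, 6587 and 9147 in Low AA mice and 5932, 6810, 6927 and 8115 in Control mice. The highest and the lowest mouse were both on the Low AA diet. The fold was 0.992 with a 95% interval of 0.776 to 1.27 (log2 fold change -0.01, standard error 0.16, limma adjusted p = 0.988).

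Cyp3a59, the 1 gene of 9 further Cyp2b and Cyp3a genes with a value, had 867, 429, 480 and 991 in Low AA mice and 445, 383, 813 and 852 in Control mice (log2 fold change 0.15, standard error 0.33, limma adjusted p = 0.915). Its direction turned without F2212, at -0.059, and without H1315, at -0.058. It was high in H1126, H1315, F7111 and F2110, the mice that were also high in Cyp3a25. The transcripts of these 2 genes had 96.5% identical positions, and 6.05% of the 100-base windows of Cyp3a25 occurred unchanged in Cyp3a59, so reads may have been divided between them. Of the windows of Cyp3a11, 0.312% occurred in another gene, Cyp3a44 or Cyp3a16, and of those of Cyp3a13, Nr1i2, Nr1i3 and Por, 0. Windows with a mismatch were not counted.

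On the per-kilobase scale, the order of levels on the Control diet was Cyp3a11 with 14806 ± 3923, Cyp3a25 with 10332 ± 3355, Por with 6662 ± 1418, Nr1i3 with 3144 ± 599, Cyp3a13 with 2350 ± 303 and Nr1i2 with 1153 ± 247 (SD, n = 4 each). The ranges of Cyp3a11 and Cyp3a25 overlapped there, as did those of Cyp3a25 and Por, and of Nr1i3 and Cyp3a13. On the Low AA diet the order of these 6 genes was the same, with Cyp3a11 at 34451 ± 6970 and Cyp3a25 at 10025 ± 3228 (SD, n = 4 each), and their ranges no longer overlapped. Cyp2b9 had the lowest median of the 7 genes on either diet, at 303 in Low AA mice and 2.13 in Control mice.

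Summed over the 4 Cyp3a genes per kilobase, the level was 36483 to 57736 in the Low AA mice and 21183 to 34344 in the Control mice. Cyp3a11 made up 70.2% to 75.5% of this sum in the Low AA mice and 48.8% to 56.8% in the Control mice. Cyp3a25 made up 18.9% to 23.6% and 32.1% to 43.0%, and Cyp3a13 made up 4.18% to 5.63% and 6.98% to 10.4%. Within each mouse, the ratio of Cyp3a11 to Cyp3a25 per kilobase was 2.97 to 3.98 in Low AA mice and 1.14 to 1.76 in Control mice. The mice of the 2 diets thus lay further apart in this ratio than in Cyp3a11 alone. The genes were picked with results known, so the difference between their responses was not tested.

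**Figure D2:**
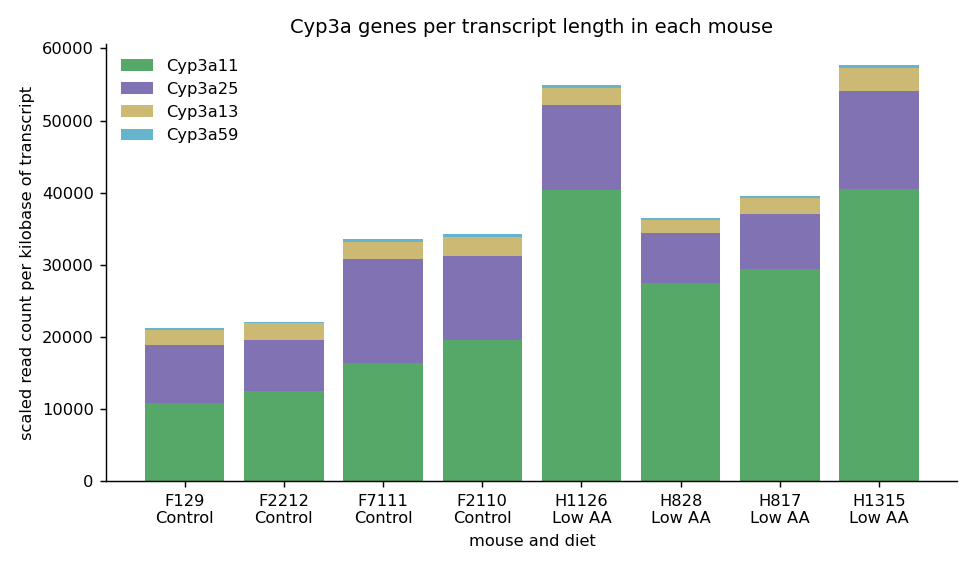
Each bar is 1 mouse, and its height is the sum of the scaled read counts of 4 Cyp3a genes per kilobase of transcript, divided by gene. The share of Cyp3a11 is 48.8% to 56.8% in the Control bars and 70.2% to 75.5% in the Low AA bars, while the height of the Cyp3a25 segment varies as much within a diet as between them.

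Variation within a diet was compared between the genes. With the diet mean taken off each gene, Pearson's r over the 8 mice was 0.97 between Cyp3a25 and Cyp3a59 (rho 0.88), 0.86 between Cyp3a11 and Cyp3a25 (rho 0.57) and 0.79 between Cyp3a11 and Cyp3a13 (rho 0.93). The exact permutation p within diets was 0.00694, 0.0469 and 0.00521 for r and 0.0208, 0.219 and 0.00347 for rho. After adjustment over the 28 pairs of these 8 genes the smallest adjusted p was 0.0972 in the exact permutation test, so 0 pairs passed. Without the 2 mice farthest from the median of the first gene, r was 0.99, 0.96 and 0.70. Reads may have been divided between Cyp3a25 and Cyp3a59, and the part of this in their r was not tested. For Cyp3a59, r over all 8 mice was 0.93 with Cyp3a11 (rho 0.74) and 0.76 with Cyp3a13 (rho 0.83). Between Cyp3a13 and Cyp3a25 it was 0.71 (rho 0.71). The exact permutation p of these r values was 0.0295, 0.0191 and 0.0642. PXR and CAR gave r of -0.32 and -0.07 with Cyp3a11 in the same way (rho -0.31 and -0.07, exact permutation adjusted p = 0.694 and 0.917 for r).

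Cyp2b9, on chromosome 7 from 26173411 to 26210661, had 2940 scaled read counts in H1126, 861 in H817, 276 in H828 and 23 in H1315 on the Low AA diet. On the Control diet it had 94 in F2212, 5 in F7111 and 3 in F129, and it was listed at 0 in F2110. Among the Control mice, the library that stood apart for Cela1 was the highest, and it exceeded Low AA mouse H1315. The log2 fold change was 5.70, the largest positive one of all 11784 genes, with a 95% interval of 2.27 to 9.14 before adjustment (standard error 1.55, limma adjusted p = 0.161), and an exact permutation test, two-sided, gave p = 0.0571. The size depends on the pseudocount, with 6.67 at a pseudocount of 0.1 and 4.74 at 5. Every gene analysed had at least 28 in at least 3 mice. Cyp2b9 reached 28 in H1126, H817 and H828, but in F2212 alone among the Control mice. A gene this low on the Control diet is listed only if it is high on the Low AA diet. Its direction and rank are thus partly set by that limit and carry no separate weight.

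Without F2212 the log2 fold change of Cyp2b9 was 6.96 (limma adjusted p = 0.0635), and without H1315 it was 7.01 (limma adjusted p = 0.0746). Without H1126 it was 4.69 (limma adjusted p = 0.343), and without F2110 4.77 (limma adjusted p = 0.298). It did not pass with any mouse left out, where the adjusted p in limma ran from 0.0635 to 0.438. Low AA mice H1315 and H1126, with the least and the most Cyp2b9 on that diet, had the highest Cyp3a11 values, 94939 and 94699. Cyp2b9 transcripts shared 1.18% of their 100-base windows with Cyp2b13 or Gm45225, and had 81.2% identical positions with Cyp2b10, with which they shared no such window.

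**Figure D3:**
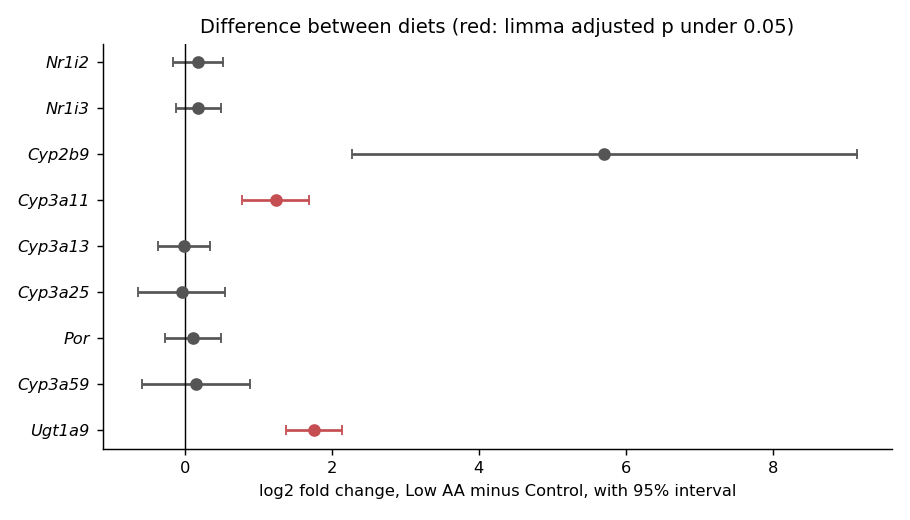
Points are log2 fold changes, Low AA minus Control, on the log2(value + 1) scale, with unadjusted 95% intervals from limma over 4 mice a diet, for the 7 members, Cyp3a59 and Ugt1a9. The intervals of Nr1i2, Nr1i3, Por, Cyp3a13, Cyp3a25 and Cyp3a59 span 0, and Cyp2b9 has the widest, from 2.27 to 9.14.

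The other known targets of CAR and PXR went both ways. Of 29 with a value, from a list of 34, 14 were higher and 15 lower in Low AA mice, at a median log2 fold change of -0.16 beside 0.00 over all genes. The 1 that passed was Ugt1a9, a glucuronosyltransferase gene. It had 7042, 8869, 6930 and 7407 scaled read counts in Low AA mice and 2787, 1554, 2495 and 2268 in Control mice, with no overlap (log2 fold change 1.76, standard error 0.17, limma adjusted p = 0.00198). Reads of the Ugt1a genes share their last exons, so the value of this single gene is uncertain.

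At an unadjusted p under 0.05 in limma, 8 of the 29 targets were lower and 1 higher, 27.6% lower against 6.7% of all genes. Gsta2, a glutathione transferase, had 61 to 106 in Low AA mice and 136 to 235 in Control mice (log2 fold change -1.07, standard error 0.22, limma adjusted p = 0.0793). Abcc3, an efflux transporter, and Ces2a, a carboxylesterase, named after their values were seen, also did not overlap between the diets, at -0.70 and -0.66 in log2 fold change (limma adjusted p = 0.147 and 0.0847). Cyp2a5, a coumarin hydroxylase gene, ran from 575 to 2932 in Low AA mice and from 744 to 6644 in Control mice (log2 fold change -1.51, standard error 0.70, limma adjusted p = 0.441), and its log2 fold change ran from -2.19 without F129 to -1.14 without F2212.

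Of 20 partners and coregulators of the receptors, 0 passed in limma, 2 (10.0%) had an unadjusted p under 0.05 beside 11.8% of all genes, and the median log2 fold change was 0.08. Gnb2l1, the older symbol of the scaffold gene Rack1, had 11272 to 13204 in Low AA mice and 7927 to 10388 in Control mice, without overlap (log2 fold change 0.42, limma adjusted p = 0.146). Nr0b2, which encodes the corepressor SHP, differed by 0.73 in log2 fold change (limma adjusted p = 0.405), and Ppargc1a, a coactivator gene induced by fasting, by 0.51 (limma adjusted p = 0.751) with 465 in F2212 and 1831 in H1315 at its ends. Without F2212 the log2 fold change of Ppargc1a was 0.18. Rxra, the main RXR partner of liver, had 12958 to 15142 in Low AA mice and 13182 to 15799 in Control mice and was chosen for its role.

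Among 10 genes that supply P450 enzymes with electrons or NADPH, 0 passed in limma and 2 had an unadjusted p under 0.05, 1 higher and 1 lower, beside 11.8% of all genes in either direction. Pgrmc1, a heme-binding partner of P450 enzymes, had 16132 to 18549 in Low AA mice and 19427 to 24520 in Control mice (log2 fold change -0.32, limma adjusted p = 0.257). G6pdx, the first NADPH-making step of the pentose phosphate pathway, had 149 to 195 and 116 to 131 (log2 fold change 0.38, limma adjusted p = 0.284), and Pgd, the next such step, differed by 0.18 in log2 fold change (limma adjusted p = 0.524).

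Among 13 genes of heme synthesis and breakdown, 0 passed in limma and 2 (15.4%) had an unadjusted p under 0.05, beside 11.8% of all genes. Fech, whose enzyme inserts iron to form heme, had 3293 to 3533 in Low AA mice and 3851 to 4910 in Control mice (log2 fold change -0.29, limma adjusted p = 0.266). Blvrb and Cpox had log2 fold changes of -0.42 and 0.25 (limma adjusted p = 0.298 and 0.658), and Cpox was at 0.075 without F2212. Alas1, the rate-limiting step and also a CAR and PXR target, ranged from 9513 in F129 to 43966 in F2212, both on the Control diet.

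Of 10 other nuclear receptors and sensors, 0 passed in limma and 0 had an unadjusted p under 0.05, with the largest log2 fold changes those of Thra at 0.30, Ppara at 0.23 and Thrb at 0.22 (limma adjusted p = 0.523, 0.538 and 0.79), and Thrb was at 0.026 without F2212. Of 9 further P450 genes predominant in female liver, 3 had a value, and all 3 were higher on the Low AA diet without passing. Cyp17a1, a steroid hydroxylase gene, differed by 1.54 in log2 fold change (limma adjusted p = 0.0847), Cyp2c69 by 0.77 (limma adjusted p = 0.469) and Cyp2c40 by 0.67 (limma adjusted p = 0.476). Their order among the Low AA mice differed from that of Cyp2b9, since H1126, the highest in Cyp2b9, was the lowest in all 3.

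**Figure D4:**
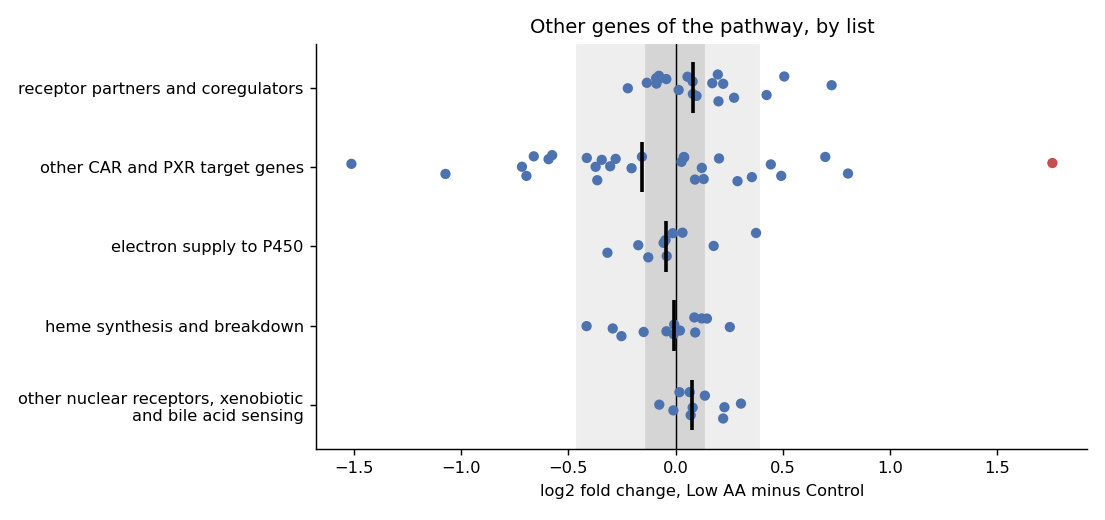
Each point is a gene of the list named on the vertical axis, placed at its log2 fold change, Low AA minus Control, with the median of the list as a black tick. The dark and light bands hold the 25th to 75th and the 5th to 95th percentile of all genes. The red point is Ugt1a9 at 1.76, and the other CAR and PXR targets spread from -1.51 to 0.80.

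Markers of liver zones and other cell types were set beside these results. Of 7 pericentral markers 0 passed in limma, and 2 were higher and 5 lower in Low AA mice. An unadjusted p under 0.05 in limma was reached by 1 of these 7, beside 11.8% of all genes. Their summed level was 356950 to 525788 in Low AA mice and 384460 to 523763 in Control mice, and that of 6 periportal markers was 140145 to 190899 and 156346 to 198052. The 7 Kupffer cell and macrophage markers were all higher on the Low AA diet, with sums of 7830 to 11130 against 7364 to 10941, and the 4 cholangiocyte markers with a value were all lower, with sums of 826 to 1316 against 1124 to 2265. The 4 red blood cell markers with a value were also all lower, with sums of 9211 to 13541 against 7206 to 27464. In limma 0 genes of these 3 lists passed. An unadjusted p under 0.05 was reached by 1 of 7, 2 of 4 and 2 of 4, beside 11.8% of all genes. Their part in the differences was not tested.

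The genes most like each member in pattern were taken as the 2 with the highest Pearson's r of log2(value + 1) over the 8 mice, out of 11777 genes, a description with no test. For Cyp3a11, Prkrir had an r of 0.97 and lay higher in every Low AA mouse than in any Control mouse, and within diets its r was 0.85. For Cyp2b9 they were Acot3, an acyl-CoA thioesterase gene, with 0.97 and Pex11a, a peroxisome membrane gene, with 0.97, and within diets r was 0.94 and 0.97. Acot3 had 1802 to 4965 in Low AA mice and 486 to 1822 in Control mice.

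For the receptors they were Vps26a and Xylb with Nr1i2 (0.99 and 0.96) and Nat15 and Slc22a7 with Nr1i3 (0.97 and 0.95). For Nr1i3 the r without the 2 mice farthest from the median was 0.74 and 0.64, so the likeness rested partly on F129 and F2110. Cyp3a25 was closest to Phtf1 and Ccdc62 (0.97 and 0.96), Cyp3a13 to Crcp and E430018J23Rik (0.97 and 0.95), and Por to Pank4 and Pard3b (0.99 and 0.96). Of these 10 genes 0 passed in limma, with adjusted p from 0.466 to 0.998.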

How the data were processed

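RNA from 8 livers, 4 per diet, was enriched for poly(A), made into stranded TruSeq libraries and sequenced. The submitters' processing notes name bcl2fastq 1.8.2, STAR 2.5.0a, RSEM 1.2.6, edgeR 3.10.5, R 3.2.1 and the mm10 genome. The authors deposited 1 table of 11784 genes with a signal value per mouse, read counts scaled between samples and rounded to whole numbers. How they were scaled is not given in the sources used here, so count models were not used and counting error is unknown. Every gene had at least 28 in at least 3 mice, so low genes had been removed before deposit. The deposited fold score of each gene (a signed Low AA to Control fold change) and the deposited p-value (false discovery rate) hold the authors' own comparison and were not used.

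Values were analysed as log2(value + 1), which understates changes of low genes, with limma 3.58.1 in R 4.3.3 (eBayes with a mean-variance trend, no covariates, Benjamini-Hochberg adjustment over all genes). A minimum of 1 in 4 mice removed 0 genes. Exact permutation tests over mice were two-sided. The limma step was tested on simulated data. Levels per kilobase used the GENCODE M21 transcript numbered first for each gene. Alignments used Biopython 1.88, and promoters came from RefSeq on GRCm38.p6. Genes named are the members, the genes called and the 3 largest changes of each pathway list, and the 2 genes most like each member, of which 1 is not reported here. Rxra and Alas1 were added for their roles, and Abcc3 and Ces2a after their values were seen. The members and lists were chosen with earlier results of these data known. Alternatives were another pseudocount, filter, scaling and moderation, and leaving out each mouse.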

Additional observations from a re-analysis of the deposited data

Results flagged for a closer look

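In 6 of 74 groups of 4 mice, over 37 measures, 1 mouse lay far from the other 3 by the gap to its nearest neighbour as a share of the whole range (Dixon's 95% limit), which chance gives in about 1 in 20 groups. For Nr1i3 it was Low AA mouse H828, with a gap of 0.871 of the range and 4444 scaled read counts against 5078 to 5179. For Cyp2c69 it was Low AA mouse H1126, with 0.961 and 76 against 256 to 269, and for Cyp17a1 Control mouse F2110, with 0.862 and 5990 against 2061 to 2389. For the summed pancreas acinar markers, of which Cela1 alone had a value, it was Control mouse F2212, with 0.945 and 36587 against 130 to 178. F2212 also stood apart for the summed lymphocyte markers, with 0.889 and 449 against 246 to 263. Low AA mouse H828 stood apart for the single intestine marker with a value, Fabp2, with 0.86 and 5426 against 5179 to 5213.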

How the results depend on the processing

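With all 8 mice, 47 genes and 1 member, Cyp3a11, passed in limma. With each mouse left out, 16 to 77 genes and 0 to 1 members passed, 77 without F2212 and 16 without H817. With a mean value of at least 100, 28 genes passed, and without the mean-variance trend 30 genes and 0 members. Cyp3a11 kept its direction, with log2 fold changes of 1.09 to 1.38 and limma adjusted p of 0.0271 to 0.106 with a mouse left out, and 1.23 (limma adjusted p = 0.0636) without the trend. The direction turned with some mice left out for Cyp3a13 (-0.15 to 0.10), Cyp3a25 (-0.21 to 0.14), Por (-0.044 to 0.20) and Cyp3a59 (-0.059 to 0.34), of which none passed. Of the female-predominant P450 genes, 0 to 1 passed with a mouse left out, the 1 being Cyp17a1 without F2110 (limma adjusted p = 0.00737). Ugt1a9 passed under all 15 alternatives, and both receptors and Cyp2b9 kept their direction without passing under any. The cause of these shifts was not tested. No paired analysis was possible because the mouse codes carry no number shared between the diets. Depth in reads is unknown, and the number of mice limits precision.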
